A study of Mus musculus with 6 samples.

Results

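Open chromatin at 2 neighbouring mouse genes, Rccd1 and Prc1, was examined in liver by ATAC-seq, an assay in which a transposase cuts accessible DNA and tags the fragments for sequencing. Peaks were taken by the gene symbol of the deposited annotation, which gave 3 of the 22412 peaks, 1 at Rccd1 and 2 at Prc1, and all 3 passed the filter on low counts. The other 26 peaks on chromosome 7 whose start lies within 300 kb of the Rccd1 peak served as local background. The pair was chosen by the log2 change of the Rccd1 peak, in the 5′ UTR, which was the lowest among the 7 peaks called in the comparison used here, so its values are given as a description, with no test. Prc1 and the local peaks were taken by position. The series held 3 control liver libraries labelled Ad-EGFP and 3 liver libraries labelled Ad-Dyrk1b, with genotypes given as control and as overexpression of Dyrk1b, a kinase that the series title links to glucose homeostasis. The labels do not spell out the prefix Ad and give no strain, age, dose or time, nor do they say that each replicate came from its own animal. A p-value here therefore reflects spread among libraries that may be technical only.

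Rccd1 encodes a protein with RCC1 repeats, the propeller fold first known from the nucleotide exchange factor Rcc1 on chromatin. Its product has been described as a partner of Kdm8, a JmjC-domain protein, in work that links the pair to histone H3 lysine 36 methylation and to chromosome segregation. Prc1 encodes a protein that crosslinks antiparallel microtubules and builds the midzone of the anaphase spindle, where it recruits kinesins needed for cytokinesis. Genes of this kind are transcribed mainly in dividing cells, and most adult hepatocytes are quiescent. In ATAC-seq a start site can be open whether or not its gene is transcribed at a high rate.

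The 2 genes converge. In the deposited annotation Prc1 lay on the plus strand of chromosome 7 (chr7:79944198-79966007, 21810 bases) and Rccd1 on the minus strand (chr7:79965338-79974172, 8835 bases), so that their 3′ ends overlapped by 670 bases while their start sites stood 30.0 kb apart. Behind the Rccd1 start, Unc45a, a myosin chaperone gene on the same strand as Rccd1, ended 868 bases away. The Rccd1 peak (chr7:79973827-79974359, 532 bases) straddled the start site, with 345 bases inside the gene and 187 upstream of it. The Prc1 peaks lay at the promoter (chr7:79943689-79944707, over the start site) and in intron 1 of 13 (chr7:79949386-79949696, 5343 bases into the gene). No listed peak lay within 15.3 kb of the Rccd1 peak. Coordinates are printed as deposited, for a build that the values do not let be named as mm10.

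The start sites of the pair differ in sequence. The RefSeq promoter windows, 250 bases before to 50 after a start in GRCm38.p6, were matched by symbol for both genes and lie at chr7:80324405-80324704 on the minus strand for Rccd1 and chr7:80294201-80294500 on the plus strand for Prc1, coordinates that cannot be set beside those of the peaks. The Rccd1 window had 48.7% G+C and 5 CpG dinucleotides, against medians of 52.7% and 7 over 32851 windows. The Prc1 window had 65.0% and 27, and 84.5% of windows held fewer CpGs. The stretches shown here carry the matches that both starts share (CCAAT) and 2 that the Prc1 window held and the Rccd1 window did not, read 5′ to 3′ on the gene's strand, with the match in capitals.
Rccd1 NF-Y box, strand of the gene: acagagcctgggCCAATcagtgaaggcact
Rccd1 NF-Y box, other strand: ggcttggcactcATTGGctcagtacaagta
Prc1 NF-Y box, strand of the gene: cggacgcggtaaCCAATtgtcatttggcac
Prc1 NRF1 core: cataggtgcacGCATGCGCatattgaggcc
Prc1 CHR element: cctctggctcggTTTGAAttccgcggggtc

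CCAAT, the letters bound by NF-Y, began 31 and 65 bases before the Rccd1 start and 37 bases before the Prc1 start, and 37.4% of all windows hold it on either strand. TTTGAA, the letters of the CHR element found at start sites of cell cycle genes, began 5 bases before the Prc1 start, and 17.9% of windows hold it. The Prc1 window also held 1 match to the NRF1 core GCATGCGC (2.71% of windows) and 2 to GGGCGG of SP and KLF factors (35.7%), and the Rccd1 window held neither. CCGGAAG (ETS), TTCGAA (CHR), TTTGGCGC, TTTCGCGC and TTTCCCGC (E2F), TGACGTCA (CRE), CACGTG (E-box) and TATAAA were in neither window. Both strands were searched and no match printed overlaps another. A second RefSeq window of Prc1, with a start further downstream, held the same number of matches to each.

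Across the series, libraries held 762633 to 1267934 reads in peaks, the highest being Dyrk1b 3, which is 1.67% to 2.62% of the totals behind the deposited RPKM values. Levels are given in CPM, counts scaled to the reads in peaks after TMM normalization, which corrects for library size and composition. Levels are compared between peaks in the authors' RPKM, which also divides by peak length. At the overexpressed gene, the 2 exon peaks of Dyrk1b held 1.21 to 12.1 CPM in the control libraries and 29.8 to 43.6 CPM in the Dyrk1b libraries, with no overlap. Exon reads of any introduced copy cannot be told apart from those of the gene itself, so nothing about its chromatin is read from them. Of 8 hepatocyte markers 5 had a peak, with summed levels of 278 to 433 CPM in controls and 312 to 335 CPM with Dyrk1b, and Ttr, Serpina1a and Cps1 had none listed. Of 6 endothelial markers 2 had peaks (Stab2 and Pecam1), at 110 to 121 against 135 to 163 CPM, and of 5 B cell markers 2 (Ebf1 and Pax5), at 23.4 to 40.2 against 44.9 to 67.3 CPM. Peak by peak, the groups overlapped at Pecam1 and Pax5 and did not at Stab2 and Ebf1. Over all tested peaks 19.5% did not overlap. A single stellate marker of 6, Lrat, stood at 11.7 to 15.7 against 20.6 to 23.8 CPM. Of 8 macrophage markers 2 had peaks (Csf1r and Spi1), with sums of 163 to 206 against 161 to 184 CPM. These sums hide opposite signs, with log2 changes of 0.67 ± 0.33 at Csf1r, without overlap, and -0.50 ± 0.21 and 0.16 ± 0.29 at Spi1, with overlap. Of the 7 hepatocyte peaks 6 were negative and 1 positive. The groups did not overlap at 1 of the 7, downstream of Fgb (-0.68 ± 0.32). For T cells, 1 of 5 markers had a peak, at 30.4 to 50.8 against 22.0 to 34.4 CPM, and 0 of 5 cholangiocyte markers had one. The part of cell makeup in the results at Rccd1 was not tested, and fewer cells with an open site cannot be told apart in bulk tissue from fewer open copies per cell.

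The normalised level at the Rccd1 start was about 4 times lower in Dyrk1b libraries, with no background level taken off. The deposited reads were 47, 49 and 35 in controls 1, 2 and 3 and 12, 14 and 13 in Dyrk1b libraries 1, 2 and 3, or 131 against 39 in all. In CPM the control libraries stood at 54.9, 59.3 and 46.9 and the Dyrk1b libraries at 15.9, 15.4 and 9.94. Every control library was thus above every Dyrk1b library, as at 9.97% of all tested peaks. That separation goes with the choice of the peak, and Dyrk1b 3 stood below Dyrk1b 1 and Dyrk1b 2.

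The means were 53.7 ± 6.29 CPM in controls and 13.7 ± 3.29 CPM with Dyrk1b (SD, n = 3 per group), a ratio of control to Dyrk1b of 3.91. The fitted log2 change was -2.0 ± 0.35 (SE). The authors' deposited table, scaled to library totals, gives this peak mean RPKM values of 2.02 and 0.562 and a log2 ratio of -1.85. The FDR in the authors' deposited table is 0.0756, above the threshold of 0.05 used here. The peak belonged to the 0.0317% of tested peaks that edgeR called (0.0227% lower and 0.00907% higher), from which it was picked, so nothing is read from that call. Without control 2 the call was lost at a log2 change of -1.92 and without Dyrk1b 3 at -1.77. It was also lost when counts were scaled to the totals behind the RPKM values (-1.85), and DESeq2 gave this peak no adjusted p (-2.01).

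**Figure D1:**
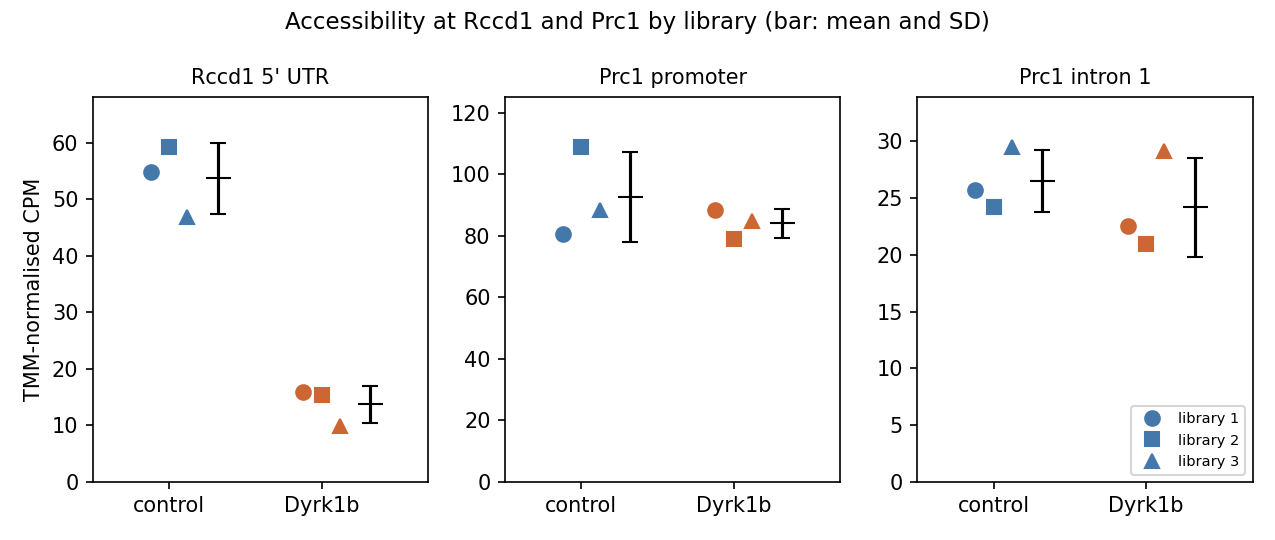
TMM-normalised CPM (vertical axes, from 0) at the Rccd1 5′ UTR peak and the 2 Prc1 peaks in the 3 control and 3 Dyrk1b libraries. Marker shapes give the library number and bars the mean and SD. Control libraries at Rccd1 stand at 46.9 to 59.3 CPM and Dyrk1b libraries at 9.94 to 15.9 CPM, while the groups overlap at both Prc1 peaks.

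At Prc1 the groups were not separated. The Prc1 promoter held 69, 90 and 66 reads in controls and 67, 72 and 111 in Dyrk1b libraries, and in CPM 80.6, 109 and 88.4 against 88.5, 79.1 and 84.9. The groups overlapped, with control 2 the highest library and Dyrk1b 2 the lowest. Means were 92.6 ± 14.6 and 84.2 ± 4.78 CPM, a log2 change of -0.14 ± 0.22 with a 95% interval from -0.57 to 0.30 and an adjusted p of 0.793 by edgeR's quasi-likelihood test.

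The Prc1 intron 1 peak was smaller, at 25.7, 24.2 and 29.5 CPM in controls and 22.5, 20.9 and 29.1 CPM with Dyrk1b. The groups again overlapped, and library 3 was the highest in each. The log2 change was -0.11 ± 0.37, with an interval from -0.86 to 0.63 and an adjusted p of 0.914. Both intervals include 0. The sign at each Prc1 peak depended on the scaling. With the totals behind the RPKM values the promoter stood at 0.03 and the intron at 0.07, after loess normalization the promoter stood at 0.02, and the authors' deposited table gives log2 ratios of 0.03 and 0.06.

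Per length, the 3 peaks were alike in controls. Mean RPKM was 2.02 ± 0.299 at Rccd1, 1.81 ± 0.162 at the Prc1 promoter and 1.71 ± 0.223 at Prc1 intron 1, and neighbours in this order differed by less than the larger of their SDs. In Dyrk1b libraries the order was the Prc1 promoter (1.85 ± 0.414), Prc1 intron 1 (1.78 ± 0.689) and Rccd1 (0.562 ± 0.112). The Prc1 peaks stayed within each other's spread there, and Rccd1 was below both in all 3 libraries.

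Read against other sites of the same class, the Rccd1 peak moved from the upper part of the range to its end. The peak was chosen for its low log2 change, so this place is a description that follows largely from the choice. In controls 73.6% of the 2863 peaks in 5′ UTRs had a lower mean RPKM than Rccd1, whose class had a median of 1.72. In Dyrk1b libraries 0 of them did, at a class median of 1.85. The other 5′ UTR peaks tested had log2 changes from -1.23 to 1.79 with a median of -0.05, and 933 of them that started from 0.8 to 1.25 times the control CPM of Rccd1 ranged from -1.09 to 0.90. The Prc1 promoter stayed near the middle of the 3408 promoter peaks, above 53.5% of them in controls and 49.5% with Dyrk1b.

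Over all 22051 tested peaks, 12 had a lower log2 change than Rccd1. Those next to it in that order rested on fewer reads, such as the promoter peak of the odorant receptor gene Olfr1164 with 16, 15 and 16 reads against 5, 3 and 6 (-2.0 ± 0.66) and an intron peak of Cntnap5a with 15, 13 and 19 against 9, 2 and 3 (-1.94 ± 0.68).

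**Figure D2:**
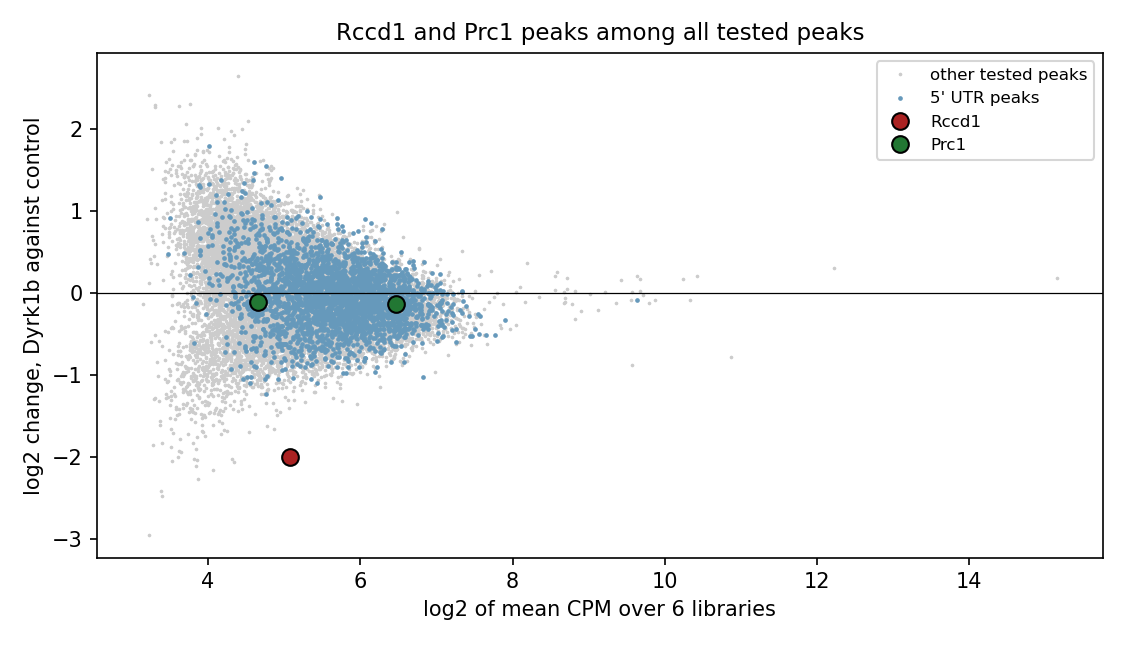
Log2 change of Dyrk1b against control libraries (vertical axis) against the log2 of mean CPM over 6 libraries (horizontal axis) for the 22051 tested peaks, with 5′ UTR peaks in blue. Rccd1, at -2.0, lies below all other 5′ UTR peaks, of which the lowest is at -1.23, and the 2 Prc1 peaks lie near 0. Rccd1 was chosen for its low value.

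The local view needs no scaling between libraries. At Rccd1 it uses the same reads by which the peak was chosen, so it describes that difference again and is no separate support. The Rccd1 peak took 3.91%, 3.95% and 3.27% of the reads in the 29 peaks of the window in controls 1, 2 and 3, of 1201, 1239 and 1071 reads. In Dyrk1b libraries it took 1.13%, 1.13% and 0.742%, of 1061, 1244 and 1753 reads. The exact Clopper-Pearson 95% intervals, which cover counting error only, ran from 2.29% to 5.19% over the control libraries and from 0.395% to 1.97% over the Dyrk1b libraries.

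The same share overlapped between groups at the Prc1 promoter, at 6.39 ± 0.781% of window reads in controls and 6.14 ± 0.306% with Dyrk1b, and at Prc1 intron 1, at 1.83 ± 0.22% and 1.77 ± 0.351%. For each read at the Prc1 promoter there were 0.681, 0.544 and 0.530 reads at Rccd1 in controls and 0.179, 0.194 and 0.117 with Dyrk1b. Ranked by RPKM within a library, Rccd1 was number 10, 11 and 15 of 29 peaks in controls and number 29, 28 and 29 with Dyrk1b. The Prc1 promoter held ranks 12 to 16 in controls and 16 to 20 with Dyrk1b.

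**Figure D3:**
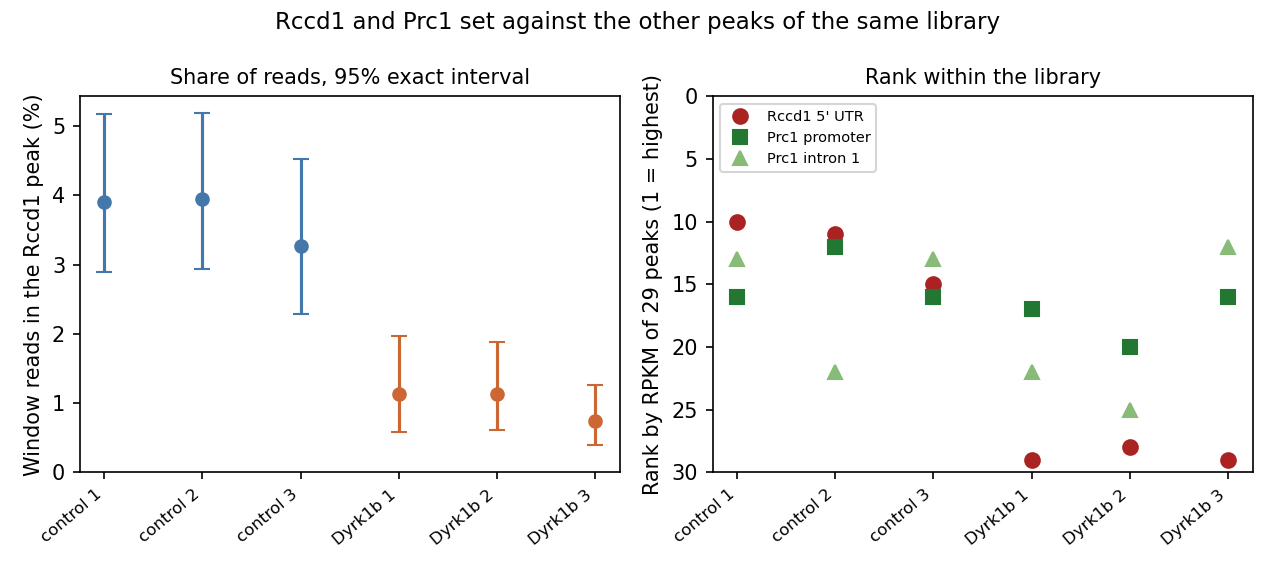
Left, percentage of the reads in the 29 window peaks that lie in the Rccd1 peak, per library, with exact 95% intervals. Right, rank by RPKM within the library, 1 being the highest, for Rccd1 and the 2 Prc1 peaks. The share is 3.27% to 3.95% in controls and 0.742% to 1.13% with Dyrk1b, and the Rccd1 rank goes from 10 to 15 in controls to 28 or 29.

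The summed level of the chromatin around Rccd1 overlapped between groups. The 26 local peaks, at 12 genes, summed to 1241, 1307 and 1269 CPM in controls and 1275, 1251 and 1217 CPM with Dyrk1b. Their log2 changes had a median of 0.06 and ran from -0.78 to 0.72, beside a median of 0.00 over all tested peaks. Of the 26, 14 were positive and 12 negative (46.2% negative, against 49.6% of all tested peaks). The edgeR test called 0 of them, as did DESeq2, which called 0.0862% of all peaks and gave many no adjusted p, and limma-trend, which called 0.00907%. At an unadjusted p under 0.05 by edgeR stood 4 of them, 3 lower and 1 higher, where 14.2% of all peaks did (7.72% lower and 6.44% higher). Groups did not overlap at 5 local peaks, or 19.2%, close to the 19.5% of all tested peaks (9.97% lower and 9.53% higher).

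Unc45a, the gene nearest to the Rccd1 start, had 3 peaks that differed in sign. Its intron 1 peak, 18.7 kb from Rccd1, held 38.5, 55.7 and 41.5 CPM in controls and 31.7, 22.0 and 26.0 CPM with Dyrk1b, the lowest log2 change of the window (-0.78 ± 0.32, adjusted p = 0.268). Every Dyrk1b library was below every control there. The peak 15.8 kb away, annotated to the 3′ UTR, went the other way with 58.4, 73.8 and 61.6 against 75.3, 88.9 and 94.1 CPM (0.42 ± 0.23, adjusted p = 0.389). The exon 2 peak between them overlapped between groups (0.32 ± 0.39).

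Beyond Unc45a on that side, the 2 peaks of Man2a2, a mannosidase of glycan processing in the Golgi, had 0.19 ± 0.43 and -0.54 ± 0.35. The intron 1 peak of Fes, a tyrosine kinase gene, lay 119 bases from its start and held 47.9, 36.3 and 41.5 CPM in controls and 67.4, 63.7 and 71.9 CPM with Dyrk1b. It was the local peak with the lowest p (0.69 ± 0.26, unadjusted p = 0.00865 and adjusted p = 0.230 by edgeR), higher in all 3 Dyrk1b libraries. The highest log2 change, 0.72 ± 0.67 in intron 5 of Blm, a helicase gene, rested on 3 to 18 reads per library, and the groups overlapped. Furin, which encodes a proprotein convertase, had -0.32 ± 0.22.

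On the Prc1 side, the 5′ UTR peak of Vps33b, a gene of endosomal and lysosomal trafficking, was 54.5 kb from Rccd1 and held 23.4, 24.2 and 22.8 CPM in controls and 34.4, 30.7 and 29.8 CPM with Dyrk1b. These groups did not overlap either, at a log2 change of 0.42 ± 0.36 (adjusted p = 0.585). The promoters of Ngrn (0.46 ± 0.38) and Ttll13 (-0.03 ± 0.24) had groups that overlapped. Cib1, which encodes a calcium and integrin binding protein, had -0.52 ± 0.25 in its 5′ UTR, where control 3 stood at 115 CPM against 64.2 and 67.7 in the other controls, and -0.14 ± 0.32 in intron 2. The remaining local peak whose groups did not overlap lay in intron 1 of Zfp710, 267.1 kb away (71.1 ± 6.53 against 49.7 ± 5.31 CPM, -0.53 ± 0.25, adjusted p = 0.323). At the start site of Idh2, the mitochondrial isocitrate dehydrogenase gene, the log2 change was 0.10 ± 0.35.

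**Figure D4:**
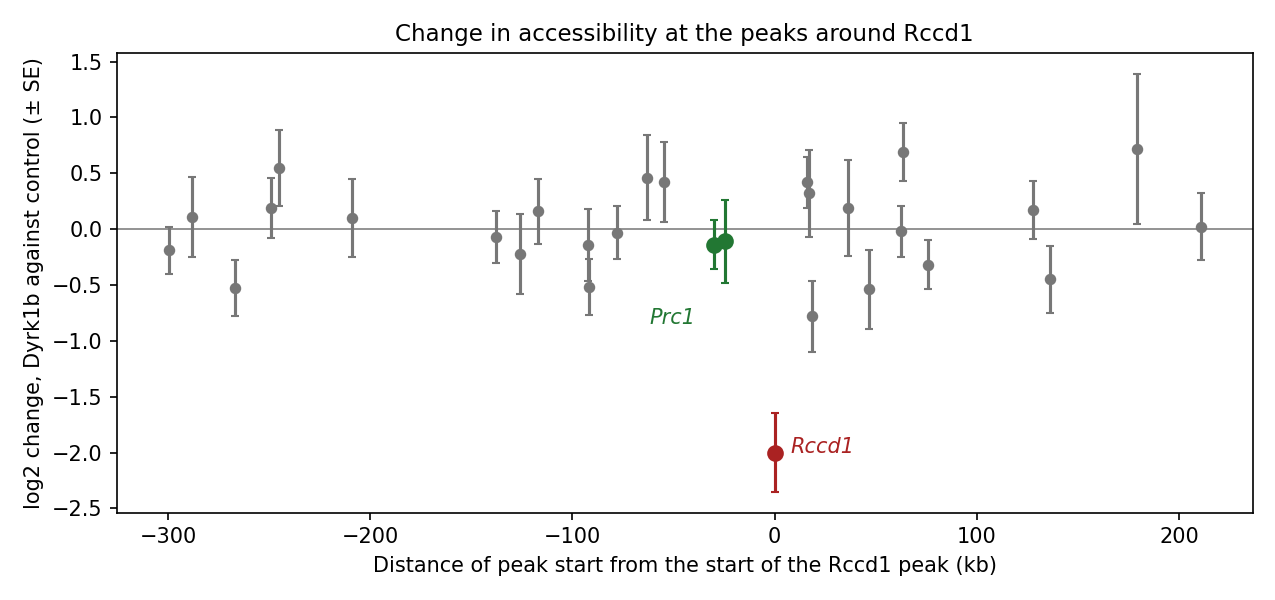
Log2 change of Dyrk1b against control (points, with SE bars) for the 29 peaks of the window by distance of the peak start from that of the Rccd1 peak, in kb. Rccd1 (red) stands at -2.0, the 2 Prc1 peaks (green) at -0.14 and -0.11, and the 26 local peaks (grey) between -0.78 and 0.72.

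The peaks most like Rccd1 in profile over the 6 libraries were sought by Pearson's r of log2 CPM with the Rccd1 peak, outside the window and with predicted genes left out. They lay in intron 1 of Ttc39c (r = 0.993), Shroom3 (0.993) and Dnajc3 (0.990), an endoplasmic reticulum chaperone partner, and in the 5′ UTRs of Pbld1 (0.990) and Mtpn (0.989). Their changes were smaller, from -0.32 ± 0.24 at Mtpn to -1.04 ± 0.30 at Dnajc3, which went from 57.2, 52.0 and 46.9 CPM to 29.1, 27.5 and 20.6 CPM. The measure is scale-free and the 6 points share the group difference and the scaling factors, and 1.72% of all tested peaks had an r of 0.9 or more, so it is a description only. Prc1 had 0.45 at the promoter and 0.18 in intron 1, and local peaks ran from -0.95 at Fes intron 1 to 0.97 at Zfp710 intron 1.

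Genes that work with Prc1 were read from a list of spindle midzone and cytokinesis genes. Besides Prc1, 15 of its genes had 31 peaks, of which 30 were tested. Their log2 changes had a median of -0.01, with 13 positive and 17 negative. Septin9 held more of them than any other gene, all in introns, so genes weigh unequally in these counts. Of the 30 peaks edgeR, DESeq2 and limma-trend called 0, beside 0.0317%, 0.0862% and 0.00907% of all tested peaks. DESeq2 gave 16245 of the 22051 tested peaks no adjusted p and could not call those. At such shares 0 calls in a list of this length says nothing about its genes. At an unadjusted p under 0.05 by edgeR, 2 were higher and 4 lower, beside 6.44% and 7.72% of all tested peaks. Kif4, a kinesin that binds Prc1 at the midzone, had the lowest p, in intron 12 of 29 on chromosome X, at 53.7, 37.5 and 53.6 CPM in controls and 25.1, 15.4 and 24.5 CPM with Dyrk1b (-1.15 ± 0.33, adjusted p = 0.131). Cdca8, a subunit of the chromosomal passenger complex, had groups that overlapped in exon 1 (13.0 ± 4.14 against 28.3 ± 10.8 CPM, 1.07 ± 0.46, adjusted p = 0.288). The groups did not overlap at the promoter of Anln, a scaffold of the cleavage furrow (43.4 ± 6.77 against 25.4 ± 9.90 CPM, -0.73 ± 0.32, adjusted p = 0.302).

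Other genes with RCC1 repeats had 29 peaks at 15 genes, with 28 tested, 14 positive and 14 negative and a median log2 change of 0.01. By each of the 3 tools 0 were called, beside 0.0317% (edgeR), 0.0862% (DESeq2) and 0.00907% (limma-trend) of all tested peaks. Here too DESeq2 could not call peaks without an adjusted p, and 0 calls says nothing about the genes. At 2 peaks the unadjusted p was under 0.05 by edgeR, both lower, where 14.2% of all tested peaks had such a p. Groups did not overlap at 1 higher and 3 lower peaks, beside 9.53% and 9.97% of all tested peaks. The higher one, in intron 55 of the ubiquitin ligase gene Herc2, stood at 11.7, 13.3 and 12.1 CPM in controls and 19.8, 22.0 and 28.3 CPM with Dyrk1b (0.93 ± 0.48, adjusted p = 0.365). At Herc2 the promoter (-0.26 ± 0.26) and intron 7 (0.50 ± 0.32) had groups that overlapped. Rcbtb2 had -0.50 ± 0.28 in intron 1 (adjusted p = 0.414), and its other peaks ran from -0.59 ± 0.39 to 0.34 ± 0.26.

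Genes of H3 lysine 36 methylation, the mark linked to the Rccd1 partner, had 33 tested peaks at 16 genes. Their log2 changes had a median of 0.07, with 22 positive and 11 negative. By each of the 3 tools 0 were called, beside 0.0317% (edgeR), 0.0862% (DESeq2) and 0.00907% (limma-trend) of all tested peaks. Again DESeq2 could not call peaks without an adjusted p, and 0 calls says nothing about the genes. Over all tested peaks 49.6% were negative. Unadjusted p values were under 0.05 by edgeR at 1 higher and 1 lower peak, and at 14.2% of all tested peaks. Kdm8 itself had an intron 1 peak at 149, 87.1 and 131 CPM in controls and 108, 94.4 and 104 CPM with Dyrk1b, with groups that overlapped (-0.26 ± 0.21, adjusted p = 0.575). The lowest p were at Zmynd11, a reader of the mark, in intron 1 (0.74 ± 0.30), at the demethylase gene Kdm2a in its 3′ UTR (-0.49 ± 0.24) and at the demethylase gene Kdm4b in intron 5 (0.74 ± 0.38), with adjusted p from 0.273 to 0.356. The peaks of Kdm4b differed in sign, with -0.71 ± 0.39 at the promoter and 0.15 ± 0.33 to 0.49 ± 0.39 at its other intron peaks, all with overlap. The intron peaks of Kdm2a had 0.07 ± 0.21 and 0.04 ± 0.26.

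Genes that mark cycling cells, the setting in which Prc1 acts, had 19 tested peaks with a median of -0.09, 7 positive and 12 negative. Of these 0 were called by the 3 tools and 0 had an unadjusted p under 0.05 by edgeR. Over all tested peaks 49.6% were negative, edgeR called 0.0317% and 14.2% had such a p. As in the other lists, DESeq2 could not call peaks without an adjusted p, and 0 calls says nothing about the genes. The lowest p were at the 5′ UTR of the replication licensing gene Mcm2 (-0.58 ± 0.30), the promoter of the spindle checkpoint gene Bub1b (-0.62 ± 0.33) and exon 1 of the transcription factor gene E2f1 (0.53 ± 0.28), with adjusted p from 0.366 to 0.388. A peak in exon 7 of Mcm2 had 0.11 ± 0.26, with groups that overlapped.

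**Figure D5:**
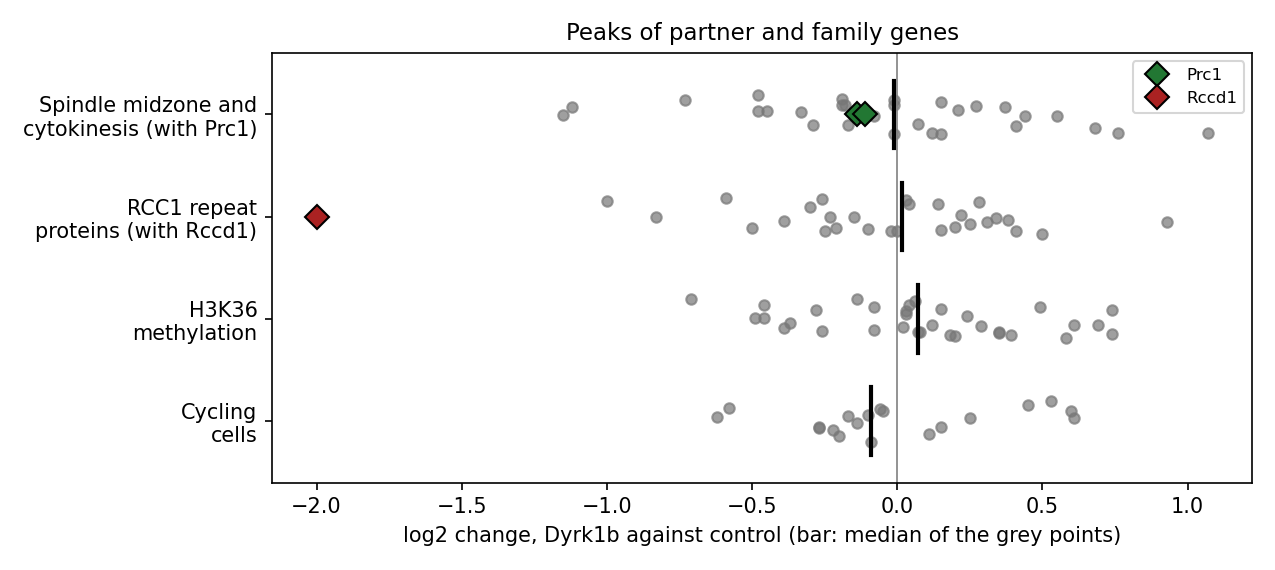
Log2 change of Dyrk1b against control (horizontal axis) for tested peaks of 4 gene lists, with grey points for peaks, a black bar for their median, and Rccd1 and Prc1 as diamonds in the list each belongs to. Grey points lie between -1.15 and 1.07 with medians from -0.09 to 0.07, and Rccd1 stands at -2.0.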

How the data were processed

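Counts: the authors deposited 1 table with whole read counts per merged peak and library, none under 1. RPKM: the deposited values scale these reads to peak length and to the library, whose total the values put at 38.05 to 48.3 M reads. The table also holds the authors' log2 ratio of mean RPKM and their p-value and FDR per peak, from a test that no source used here names. Tools listed in the submitters' processing notes are Bowtie2, DiffBind and ChIPseeker, with the build mm10. Of 10551 gene names, 3.38% started within 2 kb of their place in a GRCm38 table, so coordinates are as deposited. Peak numbers in the window skip 6 values, and those peaks were not analysed here.

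Counts were tested with edgeR 4.0.16 (R 4.3.3), TMM, filterByExpr (22051 peaks kept, 361 removed) and the quasi-likelihood test without covariates. Benjamini-Hochberg adjusted p under 0.05 over all peaks was a call. limma 3.58.1 and DESeq2 1.42.0 were alternatives. Log2 CPM used a prior count of 2. The fit was tested on simulated data.

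Members, gene lists and motifs were chosen with earlier results of these data known. Named were all member peaks, local peaks by nearness (4 a side), extreme change or groups that did not overlap, 3 genes per list by lowest p, Kdm8, and the 5 closest profiles; 1 gene this rule selects is not reported here. Furin, Idh2, Olfr1164, Cntnap5a and the other local peaks given were chosen after their values were seen.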

Additional observations from a re-analysis of the deposited data

How the results depend on the processing

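The Rccd1 log2 change stayed between -2.11 and -1.77 over 15 alternatives, among them scaling to the reads of the other local peaks, an alternative chosen after seeing the data (-1.97). The Prc1 promoter ranged from -0.23 to 0.03 and Prc1 intron 1 from -0.28 to 0.07, neither called in any of 15. DESeq2, among the 15, gave the intron peak no adjusted p and so could not call it. The promoter turned to 0.03 with the totals behind the RPKM values and 0.02 after loess normalization, and the intron to 0.07 with those totals, which moved the median of all peaks to 0.17 and left 13.1% rather than 54.5% of peaks with p under 0.05 lower. The local median (0.06) was 0.10 with library size only, 0.22 with the RPKM totals, -0.02 in a window of 100 kb and 0.13 in one of 1000 kb, and -0.03 to 0.16 with 1 library left out. Local calls and calls in the 4 lists were 0 throughout. Calls over all peaks were 2 higher and 5 lower. They were 0 and 19 with DESeq2, which gave 16245 peaks, Rccd1 among them, no adjusted p, 2 and 2 with library size only, 1 and 0 with the RPKM totals, 0 and 2 with limma-trend, 0 and 6 after loess, and 0 to 6 and 0 to 9 with 1 library left out. Same-numbered libraries showed no shared deviation from their group means, with correlations of -0.0144 to 0.0073. These values do not tell whether the libraries were paired by design, and the replicate block gave 2 and 5 calls. Leaving out a library left 2 in that group, and the 39 Dyrk1b reads at Rccd1 limit the precision of its change.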
